A study of Rattus norvegicus with 20 samples.

Results

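The genes described are those of the translation initiation factors in rat skeletal muscle: the eIF1, eIF2, eIF2B, eIF3, eIF4, eIF5 and eIF6 proteins and subunits, the kinases of the eIF2 alpha subunit, and the proteins that bind eIF4E. They were chosen by name. A gene was taken when its symbol begins with Eif and a digit from 1 to 6 and its level reached 1 FPKM in 5 or more of the 20 libraries. FPKM is the deposited level, scaled per length of transcript and per depth of library. Of 52 genes that match the name, 51 met the minimum, among 11693 genes that met it and 21926 in the table. Eif5a2, the remaining one, had between 0.0868 and 1.10 FPKM and reached the minimum in 3 libraries. Of the 51 genes, 49 met it in all 20 libraries, Eif2ak4 in 19 and Eif2ak3 in 11.

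RNA came from the gastrocnemius, a mostly fast muscle, and the soleus, a mostly slow one, of Sprague Dawley rats. Polyadenylated RNA was sequenced in 4 groups of 5 libraries: ischemic gastrocnemius, sham gastrocnemius, ischemic soleus and sham soleus. In the ischemic groups, labelled PAD and called chronic in the study's title, an endovascular catheter occluded the ilio-femoral vessels, and the sham groups are labelled only as sham. No other allele or agent is named for any group, and the labels give no age or sex and not the time between operation and sampling. They also do not say whether libraries with the same number come from the same rat, so the p-values measure only the spread between these libraries, which may be technical.

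Translation initiation brings the small ribosomal subunit, loaded with initiator tRNA by eIF2, to the capped end of a messenger RNA and moves it to the start codon. The cap is bound by eIF4E, which together with the scaffold eIF4G and the helicase eIF4A forms eIF4F, and eIF3 joins that complex to the small subunit. Both ends of the process are regulated: kinases phosphorylate eIF2 alpha and so block its recharging by eIF2B, and the eIF4E binding proteins hold back eIF4E until the kinase mTORC1 phosphorylates them.

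The library totals were between 53572300 and 85416600 counts. Sham soleus 4 stood apart. Its median correlation with the other sham soleus libraries was 0.777 on log2 CPM, whereas all other libraries had at least 0.940 within their group. CPM are counts scaled to a common library size with the TMM factors of edgeR. Sham soleus 4 had 8048 genes at 1 FPKM or more, against 9711 to 11789 in the others, and the lowest TMM factor, 0.495. In CPM, 25 of the 51 initiation factor genes were above, 24 below and 2 within the range of the other 4 sham soleus libraries. CPM divides by the TMM factor, so the factor of 0.495 raises every CPM of this library relative to its FPKM, and these positions depend on it. Eif5a, Eif3k and Eif4ebp1 were at 1575, 345 and 182 CPM in sham soleus 4, against at most 241, 45.7 and 20.8 CPM in the rest of the group. Transcripts that were short stood higher in it: the median log2 ratio to the mean of the other 4 was 1.26 for the shortest of 3 equal classes by length, 0.45 for the middle class and -0.95 for the longest. Across the 51 genes, which share these libraries and are not replicates, Spearman's rho between that ratio and length was -0.67. Over 11402 genes it was -0.44. Results that use the sham soleus are given with and without this library, and the part of transcript length or RNA quality in them was not tested.

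**Figure D1:**
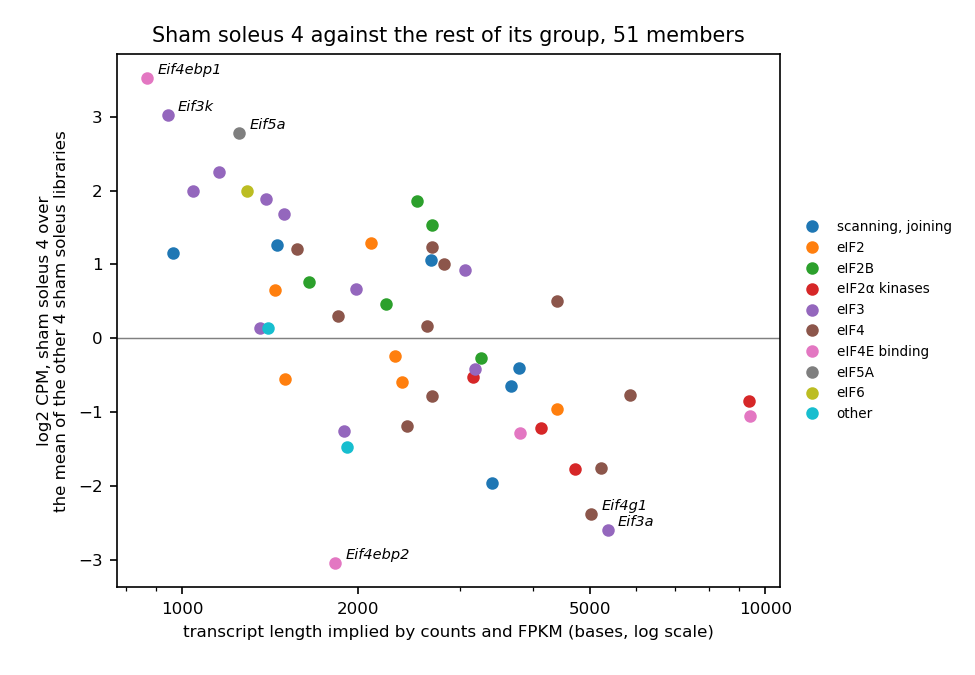
Log2 ratio of the CPM in sham soleus 4 to the mean of the other 4 sham soleus libraries (vertical axis) against the transcript length in bases implied by the counts and the FPKM (horizontal axis, log scale), 1 point per gene, coloured by role. Short transcripts such as Eif4ebp1, Eif3k and Eif5a were high in this library and long ones such as Eif3a and Eif4g1 low.

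The levels of the 51 genes differed widely, and the order below is on the FPKM scale, averaged over the 19 libraries other than sham soleus 4. Eif1, which guards the choice of the start codon, was the most abundant with 227 FPKM. Eif5a, the hypusine-carrying factor that also acts in elongation, followed with 194 FPKM, and the helicase gene Eif4a2 with 172 FPKM. The scaffold Eif4g2 had 114 FPKM and the eIF2 beta subunit Eif2s2 had 84.7 FPKM. At the low end were kinases of eIF2 alpha. Eif2ak3, the kinase PERK of the endoplasmic reticulum, averaged 1.27 FPKM, and Eif2ak4, the amino acid sensor GCN2, 1.88 FPKM. Eif2ak2, the double-stranded RNA sensor PKR, averaged 5.41 FPKM, and Eif2ak1, the heme-regulated kinase HRI, 13.9 FPKM.

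Subunits that share a complex were not at a common level. The 11 eIF3 subunits were between 29.3 FPKM for Eif3b and 73.4 FPKM for Eif3j. The eIF2B subunits were lower, from 5.42 FPKM for Eif2b3 to 28.6 FPKM for Eif2b4. In the eIF2 trimer Eif2s2 had 84.7 FPKM, while the alpha subunit Eif2s1 had 20.7 FPKM. The gamma subunit has 2 genes here: Eif2s3 had 16.1 FPKM, and Eif2s3y on chromosome Y had 17.9 FPKM and met the minimum in all 20 libraries. Among the eIF4E binding proteins, Eif4ebp1 had 21.5 FPKM, Eif4ebp2 18.4 FPKM and Eif4ebp3 4.51 FPKM. The length implied by counts and FPKM was 9410 bases for Eif4ebp3, against 870 for Eif4ebp1 and 1831 for Eif4ebp2. Whether the Eif4ebp3 row holds that gene's transcript alone was not tested, so its level may not compare with the others. Together the 51 genes took 0.468% to 0.608% of all counts in those 19 libraries and 0.339% in sham soleus 4.

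Between the muscles, the cap-binding gene Eif4e3 was 5.46-fold higher in sham gastrocnemius than in sham soleus and 3.70-fold higher in ischemic gastrocnemius than in ischemic soleus. The 2 paralogous helicases of eIF4F went opposite ways: Eif4a2 was higher and Eif4a1 lower in gastrocnemius, in both treatments. The ribosome-joining GTPase Eif5b and the kinase Eif2ak1 were also higher in gastrocnemius in both. After sham operation, 6 of the 51 genes were higher and 5 lower in gastrocnemius at an adjusted p below 0.05 by edgeR's quasi-likelihood test with Benjamini-Hochberg adjustment over 11693 genes. Such genes are called below. These 11 genes are 21.6% of the 51, beside 24.9% of all genes tested (11.4% higher and 13.5% lower). After ischemia 4 were higher and 1 lower in gastrocnemius, 9.80% of the 51 beside 12.6% of all genes (7.87% higher and 4.73% lower). Both shares are near those of all genes. In CPM the groups did not overlap for 10 of the 51 genes after ischemia, 19.6% beside 21.0% of all genes, and for 13 after sham operation, 25.5% beside 16.8%. All 5 genes called after ischemia were among the 11 called after sham operation, with the same sign. These fits take no account of the library numbers. With a block of the number within treatment, 2 genes were called after ischemia, beside 1344 of all genes, and 6 after sham operation, beside 2161.

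Single libraries moved these counts. After ischemia 8 genes were called without ischemic gastrocnemius 1, beside 2085 of all genes, and 3 without ischemic gastrocnemius 2, beside 849. The counts were larger without sham soleus 4. After sham operation 16 genes were higher and 6 lower in gastrocnemius, 43.1% of the 51 beside 35.4% of all genes (18.3% higher and 17.1% lower), and 21 did not overlap, 41.2% beside 29.4%. After ischemia 14 were higher and 6 lower, 39.2% beside 32.4% of all genes (17.2% higher and 15.1% lower). That library is in neither group of the second comparison and entered it through the shared estimate of the spread. In these fits 13 genes were called in both treatments, 9 higher and 4 lower in gastrocnemius, which is 65.0% of the calls after ischemia and 59.1% of those after sham operation. The higher ones were Eif1, Eif5b, Eif2s2, Eif2b2, Eif2ak1, Eif3b, Eif3j, Eif4a2 and Eif4e3, and the lower ones Eif3l, Eif3m, Eif4a1 and Eif4h.

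The split of the calls into higher and lower depended on how libraries were scaled. With library totals in place of TMM factors, 1 gene was called higher and 8 lower in gastrocnemius after ischemia, and 1 higher and 5 lower after sham operation, beside 22.5% and 20.8% of all genes in either direction. That scaling moved the median log2 difference of all genes to -0.38 after ischemia and -0.17 after sham operation, against -0.03 and -0.10 with TMM factors. With limma on log2(FPKM + 1), which carries the same scaling, the split after ischemia was 1 higher and 10 lower, beside 30.1% of all genes. Eif4e3 was called higher in gastrocnemius in all 33 alternatives tried for each treatment. Eif4a1 was called lower in all 33 after sham operation and in 25 of 33 after ischemia. The other 3 genes called in both treatments lost the call in some alternatives. Eif4a2 was called in 29 of 33 after ischemia and 30 of 33 after sham operation, Eif5b in 28 and 26, and Eif2ak1 in 30 and 32. Of those called after sham operation alone, Eif2s2 was called in 32 of 33, Eif3l and Eif4h in 31 each, Eif3j in 29, Eif4a3 in 15 and Eif3d in 12.

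**Figure D2:**
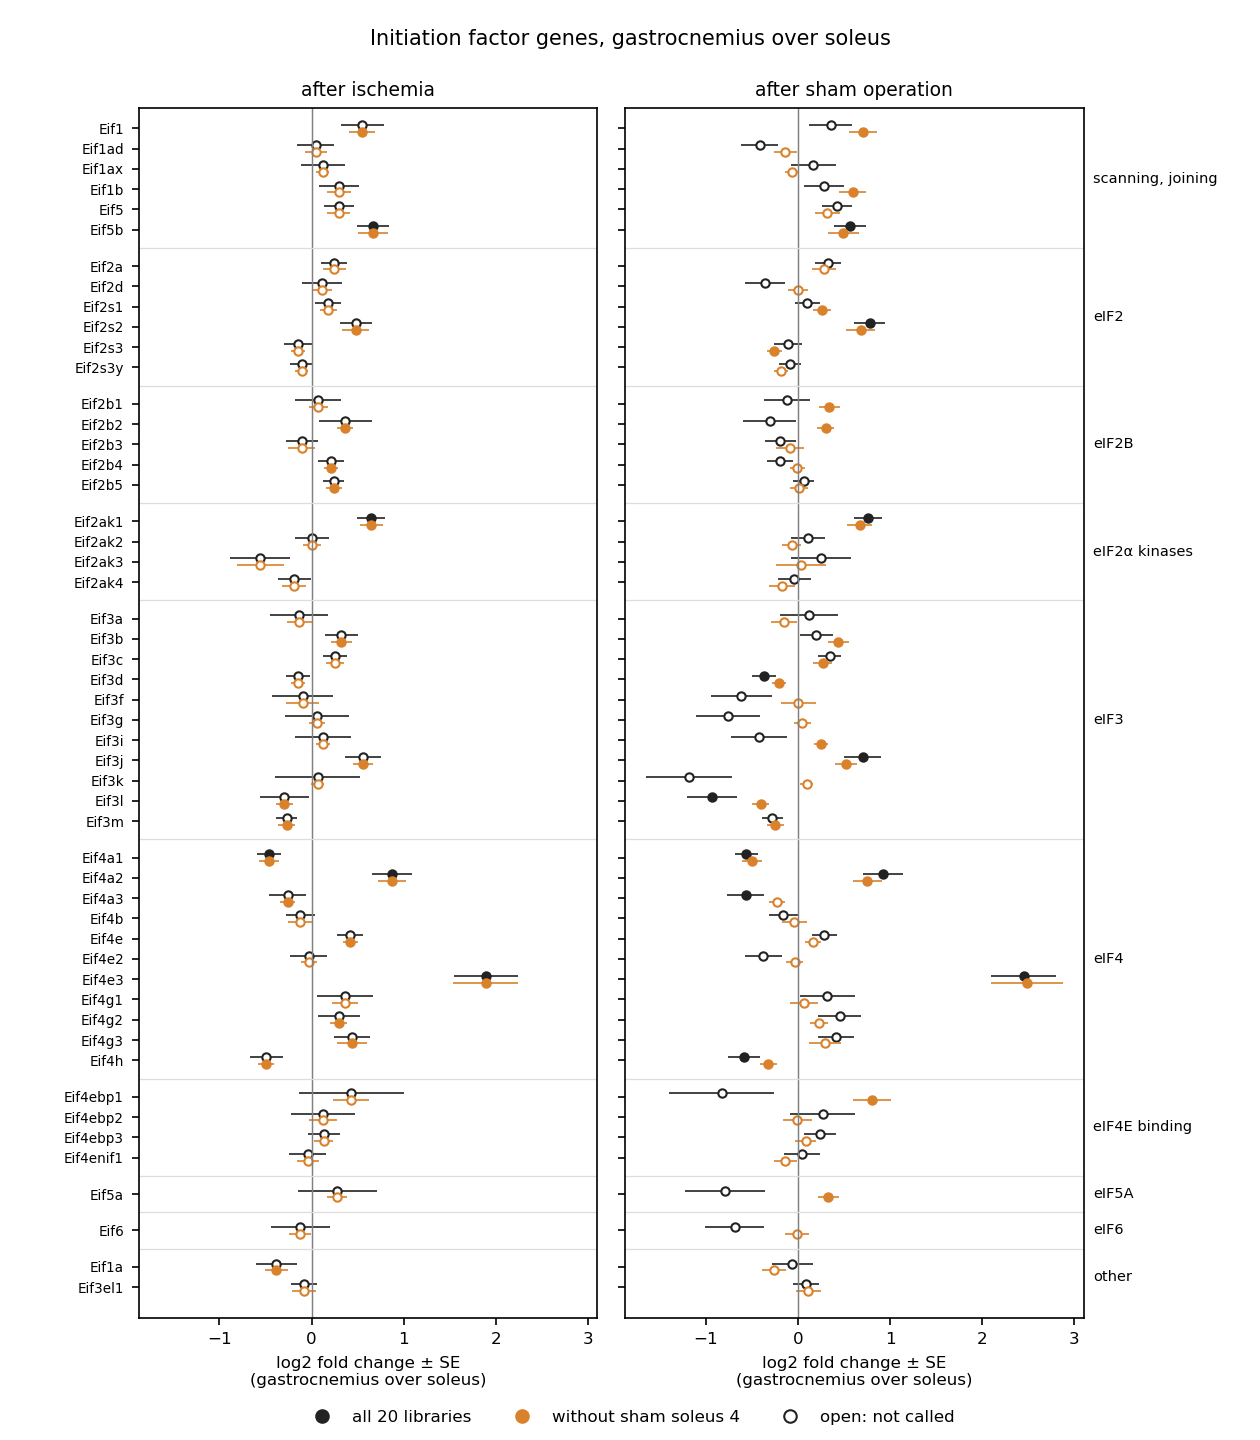
Log2 fold change of gastrocnemius over soleus, with its standard error, for 51 initiation factor genes grouped by role, after ischemia (left) and after sham operation (right), fitted on all 20 libraries (black) and without sham soleus 4 (orange). Filled points were called and open points were not; Eif4e3 has the largest difference in both panels.

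Eif4e3 encodes a member of the cap-binding eIF4E family and lies on chromosome 4 from 132068598 to 132111079 on the minus strand, in the coordinates of the deposited table (build not given in the sources here). Its levels were 20.3, 114, 60.7, 43.4 and 47.9 CPM in ischemic gastrocnemius 1 to 5, against 13.1, 18.0, 14.8, 18.3 and 13.1 CPM in ischemic soleus 1 to 5. In sham gastrocnemius they were 74.8, 45.6, 134, 50.8 and 68.6 CPM, against 14.3, 14.5, 10.7, 14.9 and 14.0 CPM in sham soleus. Every gastrocnemius library was above every soleus library of its treatment, and the gastrocnemius libraries were spread widely while the soleus libraries lay close together. On the log2 scale the fold change was 1.89 ± 0.35 (SE, n = 5 against 5, edgeR adjusted p = 0.0013) after ischemia and 2.45 ± 0.35 (adjusted p = 8.3e-05) after sham operation. The second was 2.48 ± 0.39 (adjusted p = 0.00013) without sham soleus 4. For the other family genes the difference was smaller. Eif4e, the main cap-binding protein, had a log2 fold change of 0.42 ± 0.14 after ischemia (adjusted p = 0.058) and 0.29 ± 0.14 after sham operation (adjusted p = 0.14), neither of them called. On the 19 libraries without sham soleus 4 it was called after ischemia, with 0.42 ± 0.08 (adjusted p = 8.5e-04), and not after sham operation, with 0.16 ± 0.08 (adjusted p = 0.15). Eif4e2, known as a cap-binding repressor, had -0.029 ± 0.201 after ischemia and -0.38 ± 0.20 after sham operation with all libraries, and -0.029 ± 0.085 and -0.036 ± 0.090 on the 19, none of them called.

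The helicase genes Eif4a1 and Eif4a2 encode closely related enzymes that unwind the leader of the messenger RNA. Eif4a2 lies on chromosome 11 from 81373048 to 81379871 and Eif4a1 on chromosome 10 from 56271257 to 56276764, both on the minus strand in the table's coordinates. Their promoters are shown because the members moved in opposite directions between the muscles. Each is the 250 bases before the annotated start in RefSeq's GRCr8 build, 5′ to 3′ on the gene's strand (chr11:91275324-91275573 for Eif4a2 and chr10:54888603-54888852 for Eif4a1, both minus), a build whose positions are not those of the table.
Eif4a2: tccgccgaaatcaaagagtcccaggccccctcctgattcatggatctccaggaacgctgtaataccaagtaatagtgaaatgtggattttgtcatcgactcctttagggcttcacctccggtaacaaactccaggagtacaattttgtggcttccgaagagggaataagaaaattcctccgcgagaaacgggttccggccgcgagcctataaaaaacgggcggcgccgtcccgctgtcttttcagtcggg
Eif4a1: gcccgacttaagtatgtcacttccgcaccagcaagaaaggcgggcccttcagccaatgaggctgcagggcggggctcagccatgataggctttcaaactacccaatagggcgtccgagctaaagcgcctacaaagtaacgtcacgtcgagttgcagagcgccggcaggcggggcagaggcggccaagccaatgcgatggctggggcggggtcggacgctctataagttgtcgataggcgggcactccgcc
A pair of motifs was searched in these 250 bases on both strands: TGATGNAA, the C/EBP-ATF response element of stress genes, and CAGCTG, a form of the E-box, the second chosen after values were seen. No match was found in the Eif4a2 or Eif4a1 window.

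Eif4a2 was at 338, 573, 448, 504 and 448 CPM in ischemic gastrocnemius, against 246, 267, 247, 247 and 255 CPM in ischemic soleus. It was at 485, 501, 565, 869 and 538 CPM in sham gastrocnemius, against 347, 366, 362, 154 and 329 CPM in sham soleus. No gastrocnemius library overlapped the soleus libraries of its treatment, and sham soleus 4 was the lowest of all. It had a log2 fold change of 0.87 ± 0.22 after ischemia (adjusted p = 0.012) and 0.93 ± 0.22 after sham operation (adjusted p = 0.0041). Leaving out sham soleus 4, the second was 0.75 ± 0.16 (adjusted p = 0.0014).

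Eif4a1 was at 100, 68.5, 72.3, 83.2 and 75.5 CPM in ischemic gastrocnemius, against 117, 122, 108, 106 and 97.8 CPM in ischemic soleus. It was at 83.1, 75.3, 68.3, 64.9 and 66.4 CPM in sham gastrocnemius, against 94.7, 102, 110, 124 and 96.9 CPM in sham soleus. The sham groups did not overlap, and after ischemia gastrocnemius 1 lay within the soleus range. The log2 fold change was -0.46 ± 0.13 after ischemia (adjusted p = 0.022) and -0.56 ± 0.13 after sham operation (adjusted p = 0.0037), the second being -0.50 ± 0.11 (adjusted p = 0.0019) without sham soleus 4. As a share of the summed FPKM of both genes, Eif4a2 made 72.0% to 86.5% in ischemic gastrocnemius, 81.7% to 91.1% in sham gastrocnemius and 61.5% to 66.6% in ischemic soleus. In sham soleus it made 71.5% to 73.6% in 4 libraries and 48.7% in library 4. This share was computed after values were seen and is given without a test. Other annotated genes on the same strand overlap both helicase genes, SNORA63 among them for Eif4a2, and reads of an Eif4a1-like pseudogene, with a median of 0.387 FPKM, may have been split with Eif4a1.

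Of the other eIF4 genes, Eif4h, a cofactor that stimulates the helicase, was lower in sham gastrocnemius, with a log2 fold change of -0.59 ± 0.18 (adjusted p = 0.021). It was at 72.1, 66.9, 67.0, 69.4 and 63.5 CPM there, against 87.1, 84.7, 83.6, 170 and 83.0 CPM in sham soleus, where library 4 stood far above the rest in CPM. In FPKM, which carries no TMM factor, Eif4h did not stand higher there. Its sham soleus mean was 32.0 FPKM with library 4 and 32.5 FPKM without it. With that library left out the log2 fold change was -0.32 ± 0.09 (edgeR adjusted p = 0.011). Eif4a3, the helicase of the exon junction complex, had -0.57 ± 0.20 (adjusted p = 0.044). It had -0.23 without sham soleus 4 and was not called (adjusted p = 0.0501). The groups did not overlap in CPM for either gene, since Eif4a3 was at 26.4 to 31.1 CPM in sham gastrocnemius and at 32.0 to 76.3 CPM in sham soleus.

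In the eIF2 group the beta subunit Eif2s2 differed after sham operation. It was at 162, 128, 206, 182 and 158 CPM in sham gastrocnemius, against 110, 105, 105, 70.8 and 96.6 CPM in sham soleus, with no overlap. Its difference was 0.78 ± 0.17 (adjusted p = 0.0030) on the log2 scale with all libraries and 0.68 ± 0.16 (adjusted p = 0.0025) without sham soleus 4. After ischemia it was 0.48, called without that library (adjusted p = 0.019) and not with it. The alpha and gamma subunits, Eif2s1 and Eif2s3, were called in neither treatment with all libraries. After sham operation and without sham soleus 4, Eif2s1 was higher by 0.26 and Eif2s3 lower by a log2 fold change of -0.25. The Eif2s2 promoter (GRCr8 chr3:163855571-163855820, minus strand) is shown because it holds a match to TGATGNAA, in capitals, whose first base is 36 bases before the start.
Eif2s2: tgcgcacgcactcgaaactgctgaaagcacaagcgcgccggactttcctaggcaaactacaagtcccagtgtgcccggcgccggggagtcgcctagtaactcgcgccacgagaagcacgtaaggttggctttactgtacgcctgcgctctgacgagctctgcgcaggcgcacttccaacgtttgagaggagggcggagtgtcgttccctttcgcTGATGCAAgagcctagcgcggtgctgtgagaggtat
RefSeq's promoter table had entries for 47 of the 51 genes, 50 entries in all, and none for Eif3el1, Eif4b, Eif4e3 or Eif4ebp1. TGATGNAA occurs in 2 of the 50, those of Eif2s2 and Eif3g, and in 3.40% of 33469 promoters in the table. CAGCTG occurs in 3 of the 50, those of Eif2d, Eif4e and Eif4g3, and in 12.0% of all. A match says only that the letters are there.

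Among the kinases of eIF2 alpha, Eif2ak1 was higher in gastrocnemius. It was at 37.5, 68.4, 47.9, 46.4 and 49.6 CPM in ischemic gastrocnemius, against 32.2, 32.2, 35.8, 29.7 and 29.8 CPM in ischemic soleus. Sham gastrocnemius had 55.3, 47.2, 63.0, 51.5 and 58.0 CPM, against 37.1, 34.1, 33.2, 23.9 and 34.0 CPM in sham soleus. The groups did not overlap in either treatment. Eif2ak1 had a log2 fold change of 0.65 ± 0.15 after ischemia (adjusted p = 0.0079) and 0.76 ± 0.15 after sham operation (adjusted p = 0.00125), the second being 0.67 ± 0.13 (adjusted p = 7.4e-04) without sham soleus 4. None of the other 3 kinases was called between the muscles, with or without sham soleus 4.

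Eif5b was at 81.1, 150, 126, 113 and 128 CPM in ischemic gastrocnemius, against 65.6, 64.6, 85.1, 77.6 and 84.3 CPM in ischemic soleus, with overlap through the first gastrocnemius library. Sham gastrocnemius had 113, 135, 173, 203 and 149 CPM, against 103, 122, 107, 83.0 and 106 CPM in sham soleus, and these groups overlapped too. Its log2 fold change was 0.66 ± 0.18 after ischemia (adjusted p = 0.018) and 0.57 ± 0.18 after sham operation (adjusted p = 0.025). Within eIF3, the loosely attached subunit Eif3j was higher in sham gastrocnemius by 0.70 ± 0.20 (adjusted p = 0.014), and Eif3l and Eif3d were lower. Eif3l, a subunit of the outer part of eIF3, was at 58.0, 52.9, 49.3, 46.6 and 52.3 CPM in sham gastrocnemius, against 69.5, 71.6, 66.9, 221 and 65.8 CPM in sham soleus. Its log2 fold change was -0.93 ± 0.27 (adjusted p = 0.016) with all libraries and -0.40 ± 0.09 (adjusted p = 0.0025) without sham soleus 4. Eif3d, which can itself contact the cap, had -0.37 ± 0.13 (adjusted p = 0.047) with all libraries and -0.21 ± 0.08 (adjusted p = 0.038) without it. Over all 11 eIF3 subunits the median log2 difference after sham operation was -0.37 with all libraries and 0.05 without sham soleus 4, beside -0.10 and -0.02 for all genes.

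In the remaining roles that library changed several values too. Of the 5 eIF2B subunits none was called with all libraries, and without sham soleus 4 there were 2 higher in sham gastrocnemius, Eif2b1 and Eif2b2, and 3 higher in ischemic gastrocnemius, Eif2b2, Eif2b4 and Eif2b5. Eif4ebp1 had a log2 fold change of -0.83 in sham gastrocnemius with all libraries, not called, and of 0.80 ± 0.21 without sham soleus 4 (adjusted p = 0.0056), with the opposite sign. Eif5a likewise had -0.79, not called, and 0.33 ± 0.11 (adjusted p = 0.032). Eif6, which keeps the large ribosomal subunit from joining early, was called in no between-muscle fit with TMM factors on 20 or 19 libraries.

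**Figure D3:**
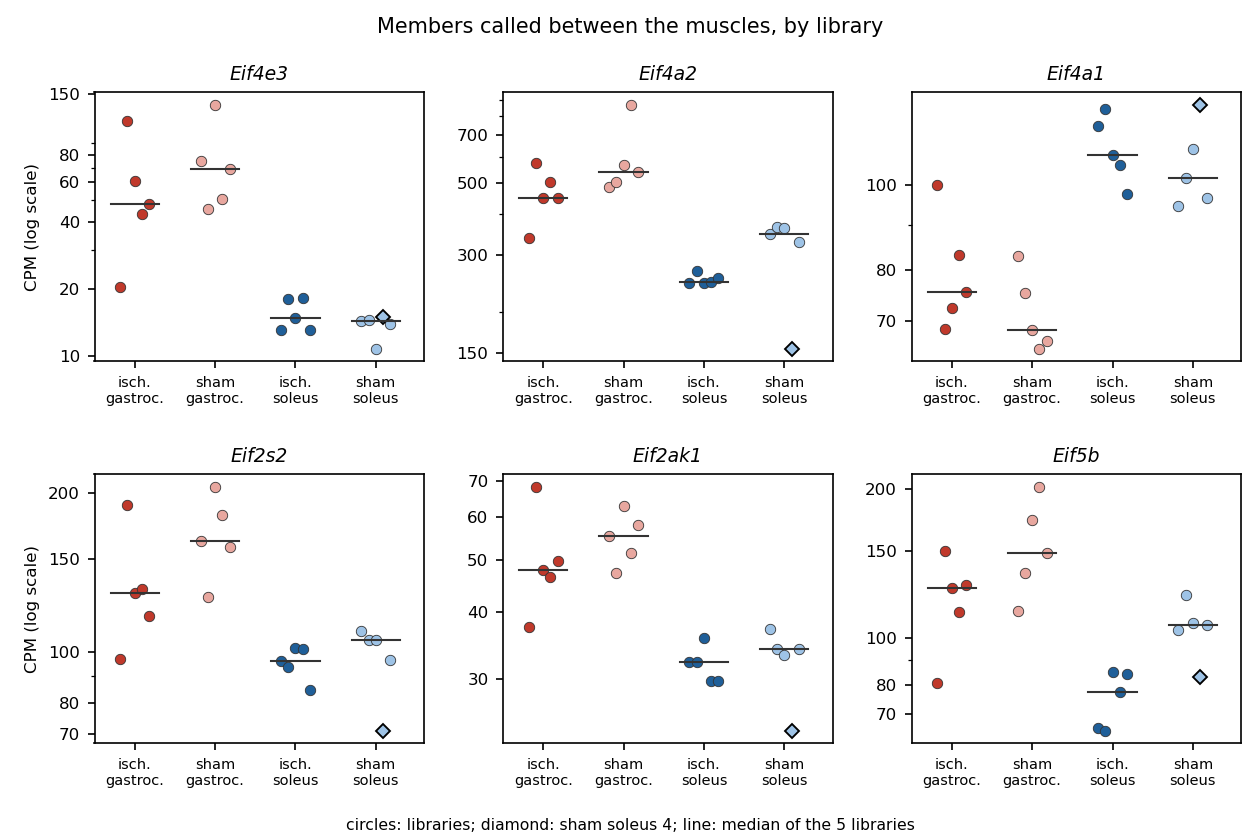
CPM on a log scale of 6 genes called between the muscles, in each of the 20 libraries, with ischemic gastrocnemius, sham gastrocnemius, ischemic soleus and sham soleus from left to right. Circles are libraries, the diamond is sham soleus 4 and the line is the median of the 5 libraries; Eif4e3 is at 20.3 CPM or more in gastrocnemius and at 18.3 CPM or less in soleus.

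Fibre type markers differed between the muscles too. In bulk muscle, fewer cells of a type and less RNA per cell cannot be told apart. A score was taken as the mean log2 CPM of 10 slow fibre marker genes minus that of the 9 fast ones found in the table. It was between -8.65 and -1.65 in ischemic gastrocnemius, between -8.35 and -1.80 in sham gastrocnemius, between 2.11 and 5.89 in ischemic soleus and between 4.06 and 6.13 in sham soleus. The summed fast markers ranged from 69829 to 188185 CPM in ischemic gastrocnemius, against 1849 to 10910 CPM in ischemic soleus, and from 87339 to 219754 CPM in sham gastrocnemius, against 2513 to 7085 CPM in sham soleus. The summed slow markers ranged from 509 to 20603 CPM in ischemic gastrocnemius, against 54465 to 70475 CPM in ischemic soleus. In the sham groups they ranged from 689 to 25490 CPM in gastrocnemius, against 89797 to 169811 CPM in soleus. Muscle and fibre type cannot be told apart between the groups.

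Across the 10 gastrocnemius libraries the score varied enough to be fitted, together with treatment, by edgeR. This comparison was added after values were seen. Of the 51 genes 4 were called, all lower where the score was slower, beside 6.07% of all genes lower, 8.77% higher and 14.8% in either direction. Per unit of the score the log2 slope was -0.21 ± 0.05 for Eif4e3 (edgeR adjusted p = 0.032), -0.10 ± 0.02 for Eif2s2 (adjusted p = 0.0051), -0.06 ± 0.02 for Eif3b (adjusted p = 0.036) and -0.08 ± 0.02 for Eif5, which activates the GTPase of eIF2 (adjusted p = 0.040). The highest Eif4e3 levels, 114 and 134 CPM, were in the libraries with the lowest scores, ischemic gastrocnemius 2 and sham gastrocnemius 3. The next lowest score, -7.11 in sham gastrocnemius 4, went with 50.8 CPM. That is less than the 74.8 CPM of sham gastrocnemius 1, at a score of -4.72. Without ischemic gastrocnemius 2 no member was called by edgeR, and 373 of all genes were, against 1735 with it. Without sham gastrocnemius 3 or without sham gastrocnemius 2 there was 1 member called each, and without sham gastrocnemius 1 there were 7.

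Of pathway genes that are not initiation factors, those of mTORC1 and cap-binding control had a positive log2 difference in 15 of 17 after ischemia and 11 of 17 after sham operation. Of these, 2 were called higher and none lower after ischemia, and 4 higher and none lower after sham operation, where 12.6% and 24.9% of all genes were called in either direction. Their median log2 difference was 0.31 after ischemia and 0.10 after sham operation, beside -0.03 and -0.10 for all genes. Deptor, an inhibitor of mTOR, had 1.84 ± 0.41 after ischemia (adjusted p = 0.0061) and 2.29 ± 0.42 after sham operation (adjusted p = 6.8e-04). Pdcd4, which blocks the helicase eIF4A, was higher after sham operation by 0.64 ± 0.16 (adjusted p = 0.0054). The kinase gene Rps6kb1 was higher by 0.80 ± 0.22 (adjusted p = 0.012).

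The same shares of all genes, 12.6% after ischemia and 24.9% after sham operation, stand beside the counts of the other pathway lists. Of 10 genes of the integrated stress response, which follows phosphorylation of eIF2 alpha, 1 was called higher and 1 lower in gastrocnemius after ischemia, and 1 higher and 2 lower after sham operation. Chac1, which degrades glutathione, was higher by 1.99 ± 0.59 after ischemia (adjusted p = 0.034) and 2.46 ± 0.61 after sham operation (adjusted p = 0.0060). Atf5, a stress-induced transcription factor, was lower, at -1.17 ± 0.31 after ischemia (adjusted p = 0.016) and at -1.48 ± 0.31 after sham operation (adjusted p = 0.0017). Of 10 elongation and termination factors, 2 were higher and 2 lower after ischemia, and 1 was higher and 1 lower after sham operation. The elongation kinase Eef2k was higher by 1.54 ± 0.24 and 1.86 ± 0.24 (adjusted p = 3.0e-04 and 2.9e-05), and Eef1a1, which delivers tRNA to the ribosome, was lower by -1.64 ± 0.30 and -1.69 ± 0.30 (adjusted p = 0.0012 and 4.8e-04). Of 13 rows for 12 other partners of initiation, Ncbp2 having 2 rows, 1 was called lower after ischemia and 2 higher after sham operation. The one called lower was Pabpc1, a poly(A) binding protein, by -0.63 ± 0.18 (adjusted p = 0.023). In the fits without sham soleus 4 the mTORC1 genes had 6 higher and 0 lower after ischemia and 7 higher and 1 lower after sham operation. The stress response genes had 1 higher and 3 lower after ischemia and 2 higher and 2 lower after sham operation, the elongation factors 3 and 3 after ischemia and 3 and 1 after sham operation, and the partners 3 and 2 after ischemia and 3 and 1 after sham operation. In those fits 32.4% of all genes were called after ischemia and 35.4% after sham operation.

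In ischemic against sham gastrocnemius none of the 51 genes was called, and none of 11693 genes was (0%), by edgeR with Benjamini-Hochberg adjustment. At an unadjusted p below 0.05 there were 2 of the 51, both lower, or 3.92%, beside 6.22% of all genes (507 higher and 220 lower). By sign, 42 were lower and 9 higher after ischemia, beside 5917 lower and 5775 higher of all genes. The median log2 fold change of the 51 was -0.16, beside -0.0035 for all genes. With TMM factors, all 11 eIF3 subunits, all 6 genes of the eIF2 group and all 5 of eIF2B were on the lower side, none called. The eIF3 value nearest to no change was -0.0043. On the higher side were 3 of the 4 eIF2 alpha kinases, none called. These signs depended on the scaling. In mean FPKM, Eif3f, Eif3l, Eif2s3, Eif2b2 and Eif2b4 were higher in ischemic gastrocnemius, and the rest of those 3 lists lower. Library totals in place of TMM factors moved the median of all genes to 0.086. The eIF2 group holds the subunit genes Eif2s1, Eif2s2, Eif2s3 and Eif2s3y and also Eif2a and Eif2d, which are not subunits of the trimer. In the fit without sham soleus 4, which is in neither group, 6 genes of all were called (0.0513%) and none of the 51. In that fit 13 of the 51, all lower, had an unadjusted p below 0.05 by edgeR. That is 25.5%, beside 16.2% of all genes in either direction (998 higher and 898 lower). DESeq2 called 0 of the 51 and 11 of all genes with all libraries (0.0941%), and 2 of the 51 without sham soleus 4, both lower, beside 1.75% of all genes.

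The 3 genes with the smallest p in gastrocnemius were Eif4g3, Eif5b and Eif2s2. Eif4g3, a scaffold of eIF4F, was at 144, 198, 187, 152 and 203 CPM in ischemic gastrocnemius, against 167, 230, 271, 359 and 208 CPM in sham gastrocnemius. The groups overlapped, with the highest values in sham libraries 3 and 4. Its log2 fold change was -0.48 ± 0.20 (edgeR adjusted p = 0.78). Eif5b had -0.37 ± 0.18 and Eif2s2 -0.33 ± 0.17 (adjusted p = 0.80 and 0.82), and both overlapped between the groups. Eif3k alone did not overlap, at 36.2 to 39.9 CPM in ischemic gastrocnemius and 42.4 to 50.5 CPM in sham gastrocnemius. That is 1 of 51, or 1.96%, beside 1.41% of all genes (0.564% lower). The fibre score, described above, averaged -3.65 ± 2.85 in ischemic gastrocnemius and -5.25 ± 2.56 in sham gastrocnemius (SD, n = 5 each), with overlap. When the score entered the edgeR fit of all 20 libraries as a covariate, 0 of the 51 and 0 of all genes were called in gastrocnemius. The part of the score in these values was not tested further. Endothelial markers were higher by sign in 7 of 7 and macrophage markers in 10 of 10 in ischemic gastrocnemius, none called, and the part of those cells was not tested.

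**Figure D4:**
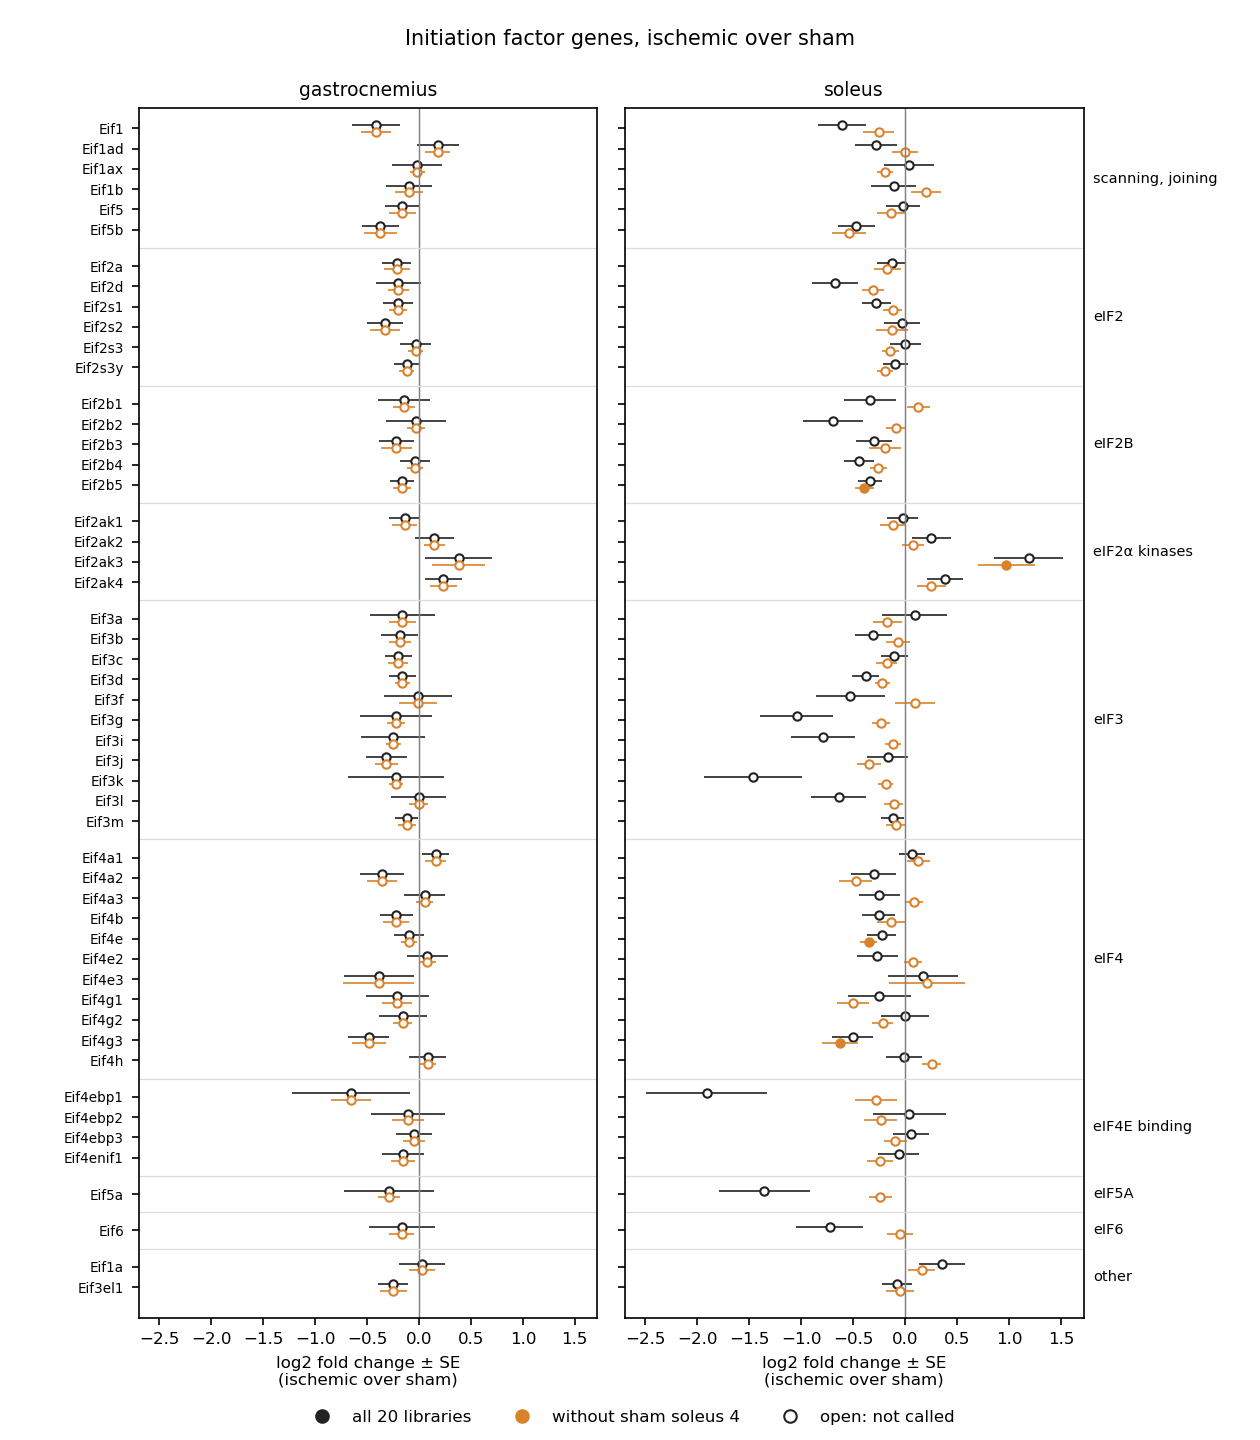
Log2 fold change of ischemic over sham, with its standard error, for 51 initiation factor genes grouped by role, in gastrocnemius (left) and soleus (right), fitted on all 20 libraries (black) and without sham soleus 4 (orange). Filled points were called and open points were not; the 4 filled points are all in soleus without that library.

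In ischemic against sham soleus none of the 51 genes was called with all libraries, beside 1.03% of all genes. At an unadjusted p below 0.05 there were 17, 2 higher and 15 lower, which is 33.3%, beside 27.8% of all genes. The groups did not overlap for 6, or 11.8%, beside 13.5%. DESeq2 called 5, with 1 higher and 4 lower, beside 12.3% of all genes. With sham soleus 4 left out, the kinase gene Eif2ak3 was higher in ischemic soleus, and the scaffold Eif4g3, the cap-binding Eif4e and the catalytic eIF2B subunit Eif2b5 were lower. These 4 are 7.84% of the 51, beside 6.15% of all genes (2.63% higher and 3.52% lower). At an unadjusted p below 0.05 there were 18, or 35.3%, beside 26.9% of all genes. By sign 39 were lower and 12 higher, beside 6034 lower and 5659 higher of all genes. The median log2 fold change of the 51 was -0.14, beside -0.012 for all genes. DESeq2 on the same 19 libraries called 15, with 1 higher and 14 lower, beside 14.2% of all genes.

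These soleus calls depended on which sham library was left out and on the scaling. Leaving out sham soleus 3 also gave 4 calls, 1 higher and 3 lower, beside 737 of all genes, and leaving out sham soleus 5 gave 3, 1 higher and 2 lower, beside 548. Both of those sets included Eif2ak3, higher, and Eif4ebp1, lower. Limma on log2(FPKM + 1) with all libraries called 2 members, both higher, beside 14.1% of all genes, and on log2(FPKM + 0.1) likewise 2, both higher, beside 852 of all genes. With library totals in place of TMM factors edgeR called 0 of the 51 and 3.40% of all genes, and the median log2 fold change of all genes moved to 0.31, against -0.036 with TMM factors.

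Eif2ak3 lies on chromosome 4 from 98648545 to 98709694 in the table's coordinates. It was at 8.75, 8.64, 6.14, 10.8 and 6.40 CPM in ischemic soleus, against 3.95, 3.34, 4.18, 1.22 and 5.12 CPM in sham soleus. The groups did not overlap, and sham soleus 4 was lowest. The gene had a log2 fold change of 1.19 ± 0.33 with all libraries (edgeR adjusted p = 0.059) and 0.97 ± 0.27 without sham soleus 4 (adjusted p = 0.044). It was also called without sham soleus 3 and without sham soleus 5 (adjusted p = 0.049 for both). In ischemic gastrocnemius the gene was at 7.07, 3.80, 5.72, 6.71 and 4.34 CPM, against 6.31, 3.98, 2.17, 3.26 and 5.52 CPM in sham gastrocnemius, with overlap. It was the lowest of the 51 genes by FPKM and passed the minimum in 11 libraries.

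Eif4g3 was at 133, 123, 138, 107 and 152 CPM in ischemic soleus, against 196, 210, 208, 118 and 194 CPM in sham soleus. Apart from sham soleus 4 the groups did not overlap. Its log2 fold change was -0.50 ± 0.20 with all libraries (edgeR adjusted p = 0.11) and -0.63 ± 0.17 without sham soleus 4 (adjusted p = 0.040). Eif4e was at 65.6, 78.8, 78.3, 65.1 and 72.9 CPM in ischemic soleus, against 86.5, 95.8, 87.7, 53.4 and 98.5 CPM in sham soleus. Only sham soleus 4 reached below the ischemic libraries. Its log2 fold change was -0.23 ± 0.14 with all libraries (adjusted p = 0.31) and -0.35 ± 0.08 without sham soleus 4 (adjusted p = 0.027).

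The promoters of these genes are shown because both hold a match to CAGCTG, in capitals, 44 bases before the start of Eif4g3 and 129 before that of Eif4e. Both lie on the plus strand of GRCr8, at chr5:155534242-155534491 for Eif4g3, the one of its 2 entries with a match, and at chr2:229740503-229740752 for Eif4e.
Eif4g3: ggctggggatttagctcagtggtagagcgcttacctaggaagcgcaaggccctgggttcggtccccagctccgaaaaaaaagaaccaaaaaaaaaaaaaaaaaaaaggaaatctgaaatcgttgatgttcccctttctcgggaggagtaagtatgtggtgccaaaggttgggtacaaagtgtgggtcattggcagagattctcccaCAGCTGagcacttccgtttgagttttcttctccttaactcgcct
Eif4e: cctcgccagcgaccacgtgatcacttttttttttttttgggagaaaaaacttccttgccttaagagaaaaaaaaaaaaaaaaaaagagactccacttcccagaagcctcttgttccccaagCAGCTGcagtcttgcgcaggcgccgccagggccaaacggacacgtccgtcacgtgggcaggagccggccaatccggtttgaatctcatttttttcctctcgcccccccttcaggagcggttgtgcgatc

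Eif2b5 was at 44.7, 45.3, 48.7, 38.4 and 47.4 CPM in ischemic soleus, against 54.8, 63.9, 60.0, 48.9 and 57.1 CPM in sham soleus, with no overlap. Its log2 fold change was -0.34 ± 0.11 with all libraries (edgeR adjusted p = 0.078) and -0.39 ± 0.10 without sham soleus 4 (adjusted p = 0.028). Eif2b4, the delta subunit of eIF2B, was at 34.8, 40.7, 41.6, 41.6 and 43.1 CPM in ischemic soleus, against 49.0, 47.7, 47.9, 81.5 and 48.4 CPM in sham soleus. These groups did not overlap either, and the value was -0.44 ± 0.14 (adjusted p = 0.073) with all libraries and -0.26 ± 0.08 (adjusted p = 0.058) without sham soleus 4. In all, 15 of the 51 genes did not overlap between the soleus groups without that library, 2 higher and 13 lower after ischemia. That is 29.4%, beside 22.6% of all genes (11.0% higher and 11.7% lower). Of the 2 that were higher, Eif2ak3 was called and Eif4h was not, with a log2 fold change of 0.25 ± 0.09 (adjusted p = 0.093). Eif4a2, which was higher in gastrocnemius, was also among the 13, at 246 to 267 CPM in ischemic soleus and 329 to 366 CPM in the other 4 sham soleus libraries. It had a log2 fold change of -0.48 ± 0.16 and was not called (adjusted p = 0.072).

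Eif4ebp1 was the binding protein gene with the smallest p in soleus, and rested on 1 library. It was at 12.8, 12.9, 15.4, 12.1 and 11.8 CPM in ischemic soleus, against 20.8, 13.5, 13.4, 182 and 15.7 CPM in sham soleus. On the log2 scale it differed by -1.91 ± 0.59 with all libraries (edgeR adjusted p = 0.068) and -0.28 without sham soleus 4 (adjusted p = 0.39). It was called, lower, without sham soleus 3 (adjusted p = 0.048) and without sham soleus 5 (adjusted p = 0.049), where library 4 was kept. Eif3k, a subunit of the outer part of eIF3, had -1.47 ± 0.47 with all libraries and -0.19 ± 0.07 without, neither of them called.

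**Figure D5:**
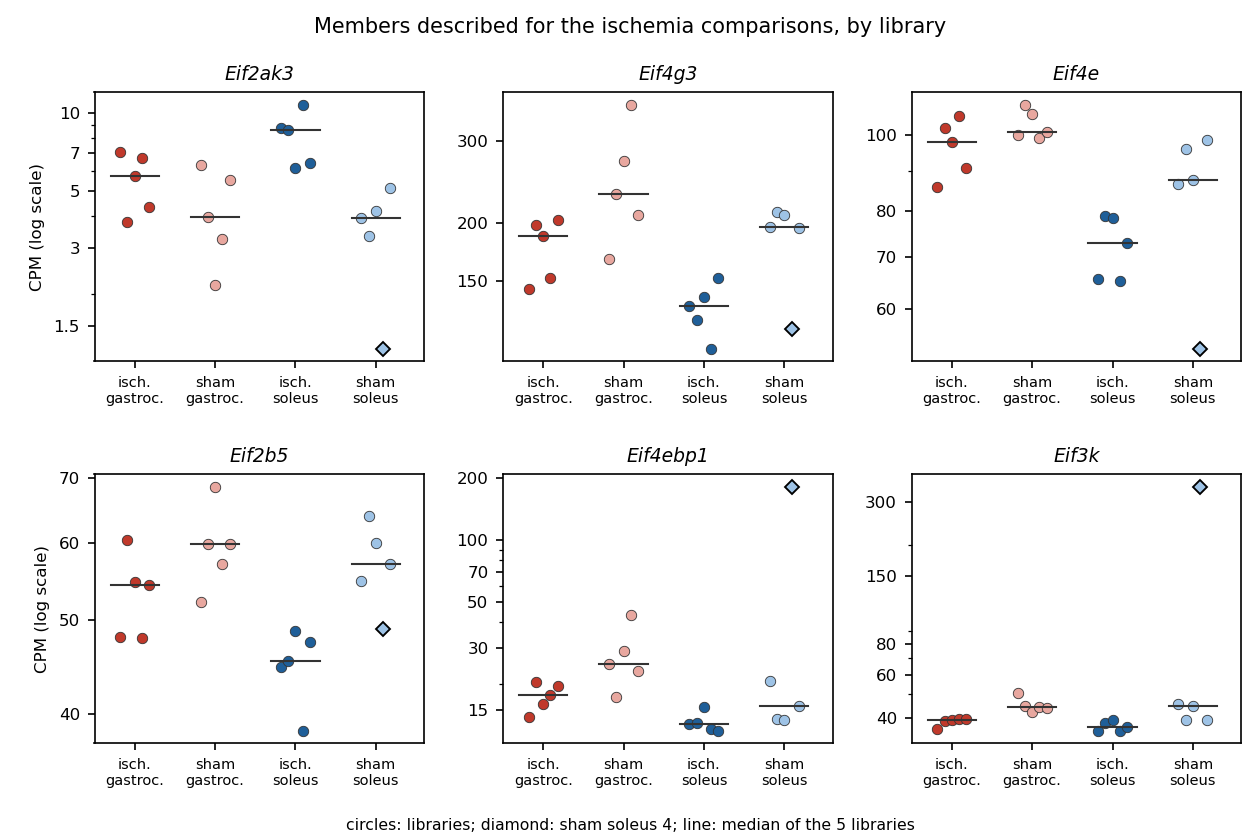
CPM on a log scale of 6 genes described for ischemia, in each of the 20 libraries, with ischemic gastrocnemius, sham gastrocnemius, ischemic soleus and sham soleus from left to right. Circles are libraries, the diamond is sham soleus 4 and the line is the median of the 5 libraries; sham soleus 4 lies at 1.22 CPM for Eif2ak3 and at 182 CPM for Eif4ebp1, at opposite ends of the plotted values.

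Markers of fibre type and of other cells moved beside these values in soleus. In the fit without sham soleus 4, all 10 slow fibre markers had a negative log2 fold change in ischemic soleus, with a median of -0.45, none called, and 9 of them did not overlap between the groups. Summed slow fibre markers ranged from 54465 to 70475 CPM in ischemic soleus, against 89797 to 169811 CPM in the 5 sham soleus libraries. In the fit without sham soleus 4, all 8 tested fibroblast markers, all 10 macrophage markers, all 5 adipocyte markers and all 4 Schwann cell markers had a positive log2 fold change, of which 4 fibroblast markers were called. Summed fibroblast markers ranged from 3333 to 8266 CPM in ischemic soleus, against 1341 to 2053 CPM in sham soleus. Summed macrophage markers ranged from 264 to 427 CPM in ischemic soleus, against 92.2 to 552 CPM in the 5 sham soleus libraries, sham soleus 4 included. Without sham soleus 4, 9 of the 10 macrophage markers did not overlap between the groups, all higher after ischemia, beside 11.0% of all genes higher. Summed adipocyte markers ranged from 101 to 428 CPM in ischemic soleus, against 60.0 to 179 CPM in sham soleus, and summed Schwann cell markers from 68.8 to 139 CPM, against 36.3 to 69.1 CPM. No lymphocyte marker of 6 passed the FPKM minimum. When the fibre score entered the edgeR fit of all 20 libraries as a covariate, 1 member was called in soleus, higher after ischemia, beside 523 of all genes. The part of the other cells in the initiation factor values was not tested.

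In the pathway lists, none of the 10 stress response genes, 17 mTORC1 and cap-binding genes, 13 partner rows and 10 elongation factors was called by edgeR in ischemic against sham of either muscle with all 20 libraries. At an unadjusted p below 0.05 there were 2, 0, 1 and 0 of them in gastrocnemius and 2, 6, 1 and 4 in soleus, beside 6.22% of all genes in gastrocnemius and 27.8% in soleus. In the fit without sham soleus 4, 3 of these genes were called in soleus, beside 6.15% of all genes. Sesn2, a stress-induced inhibitor of mTORC1, was higher by a log2 fold change of 0.79 ± 0.21 (adjusted p = 0.039). Pabpc4, a poly(A) binding protein, was lower at -0.42 ± 0.11 (adjusted p = 0.033), and Eef1a2, the muscle form of the elongation factor, at -0.46 ± 0.12 (adjusted p = 0.039). Atf4, the transcription factor translated when eIF2 alpha is phosphorylated, had -0.35 ± 0.15 in gastrocnemius (adjusted p = 0.80).

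Whether ischemia acted differently in the muscles was tested as the gastrocnemius response minus the soleus response. None of the 51 genes and none of all genes (0%) was called by edgeR with all libraries. At an unadjusted p below 0.05 there were 0 of the 51, beside 6.48% of all genes, and DESeq2 called 0 of the 51 and 2 of all. On the 19 libraries edgeR called 0 of the 51 and 1 gene of all (0.00855%), and 1 of the 51, Eif4e with 0.26, had an unadjusted p below 0.05, beside 8.66% of all genes. The smallest p among the 51 was that of Eif2b4, with a difference of 0.41 ± 0.20 on the log2 scale (adjusted p = 0.72), followed by Eif3k with 1.25 ± 0.66 and Eif2ak3 with -0.81 ± 0.46 (adjusted p = 0.72 for both). The Eif3k difference without sham soleus 4 was -0.032, with the opposite sign. The higher level of Eif2ak3 in ischemic soleus is thus not shown to differ from its response in gastrocnemius.

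Some gene models limit what these values mean. Besides Eif4g1 the table has an Eif4g1-like gene, with a median of 51.1 FPKM, and besides Eif3i a pseudogene with a median of 30.8 FPKM, so reads of each pair may have been split by the counting. Eif3el1 has other eIF3 subunit E-like rows with medians of 8.14 and 6.21 FPKM. The subunit H of eIF3 is in the table only under a LOC symbol, in 2 rows with medians of 75.7 and 26.6 FPKM, and did not match the name. Eif2ak1, Eif3a, Eif3b, Eif3k, Eif3l, Eif4e, Eif4g1, Eif4h, Eif5 and Eif5a overlap a further annotated gene on the same strand. Eif2a, Eif2ak1, Eif2ak4, Eif2b1, Eif3i and Eif5a overlap annotated genes on the other strand. Whether the counting used strand is not stated.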

How the data were processed

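The authors deposited a table of 21926 genes with expected counts and FPKM for each of 20 libraries, per the file headers. FPKM was scaled by the authors per transcript length and depth and not by TMM. Libraries were stranded and read from both ends, per the labels' protocols; no source used here names the aligner, counter, build or annotation. Small counts gather at multiples of 4 (28.3% to 36.5% of counts from 1 to 40 per library), so counting error was not computed and precision comes from the spread between libraries.

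The expected counts, whole as deposited, were rounded to whole numbers and tested for the 11693 genes that reached 1 FPKM in 5 or more libraries. TMM factors, edgeR 4.0.16's robust quasi-likelihood fit (limma 3.58.1, R 4.3.3) with 1 term per group on 20 libraries, two-sided tests and Benjamini-Hochberg adjustment over all 11693 genes were used; an adjusted p below 0.05 is a call. All comparisons were repeated without sham soleus 4. The standard error is the log2 fold change divided by the square root of F. Transcript length was recovered from each gene's counts and FPKM, with a median coefficient of variation over libraries of 1.04%. The scripts were tested on simulated data.

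Genes named with full values are the called members with the largest change, up to 4 per direction and comparison, or the 3 with the smallest p where under 2 were called. Eif2b5, Eif4e and other members outside that rule were chosen after their values were seen, as were the CAGCTG motif and the fibre slope. The members, role lists and pathway lists were chosen with earlier results of these data known. Alternatives were DESeq2 1.42.0, other scalings and filters, limma on log2(FPKM + 1) and log2(FPKM + 0.1), voom with quality weights, a replicate block and leaving out each library. Promoters are from RefSeq's GRCr8 table; motif counts and figures used Python and matplotlib.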

Additional observations from a re-analysis of the deposited data

Results flagged for a closer look

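Within groups of 5 libraries, 56 sets of CPM of the named genes were examined for 1 library far from the rest by Dixon's test. Chance alone flags about 1 in 20 sets. There were 11 such libraries, 8 of them sham soleus 4. That library was far above the other 4 of its group for Eif2b4 (81.5 CPM), Eif3k (345 CPM), Eif3l (221 CPM), Eif4a3 (76.3 CPM), Eif4ebp1 (182 CPM) and Eif4h (170 CPM). It was far below them for Eif4a2 (154 CPM) and Eif4g3 (118 CPM). These flags are on TMM-scaled CPM. In FPKM the sham soleus mean was lower with library 4 than without it for Eif2b4 (30.1 against 31.6) and Eif4h (32.0 against 32.5). It was higher with library 4 for Eif3k, Eif3l, Eif4a3 and Eif4ebp1, and lower for Eif4a2 and Eif4g3. The same library was apart over all genes.

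The other 3 were single values. Eif4a2 was at 869 CPM in sham gastrocnemius 4, above the other 4 libraries of that group at 485 to 565 CPM. Eif3k was at 36.2 CPM in ischemic gastrocnemius 1, below the others at 39.0 to 39.9 CPM, and Eif4e3 at 10.7 CPM in sham soleus 3, below the others at 14.0 to 14.9 CPM.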

How the results depend on the processing

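Counts of members called, in the order gastrocnemius, soleus, interaction, muscles after ischemia and muscles after sham operation, were 0, 0, 0, 5 and 11. Leaving out each library in turn gave 0 to 0, 0 to 4, 0 to 0, 3 to 20 and 8 to 22. The highest values came without sham soleus 4, and in soleus also without sham soleus 3, while sham soleus 5 left out gave 3. DESeq2 gave 5 in soleus and 10 between the muscles after ischemia. DESeq2 on 19 libraries, added after seeing the data, gave 2 in gastrocnemius, 15 in soleus, 23 after ischemia and 24 after sham operation. Library totals gave 9 after ischemia and 6 after sham operation. Fitting the compared groups alone gave 18 and 5. Limma gave 2 in soleus, both higher, and 11 after ischemia on log2(FPKM + 1), and 2, both higher, and 10 on log2(FPKM + 0.1). Voom with quality weights gave 1, 14, 23 and 25 outside the interaction. The fibre score as covariate gave 1 in soleus. The causes were not tested, apart from which library was left out. RLE factors, no filter, the stricter filter and the non-robust fit kept each count within 1.5 times.

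With a replicate block of the library number within treatment, 2 members were called between the muscles after ischemia, both higher, and 6 after sham operation, 5 higher and 1 lower. With the number as a block over all groups there were 6 and 9. Same-numbered muscles correlated in their deviations at 3.9e-05 to 0.38 after ischemia, above 0.1 in 4 of 5 pairs, and at -0.17 to 0.26 after sham operation, in 2 of 5. The sham deviations were taken from group means that include sham soleus 4, so these correlations cannot decide whether a number marks a pair. The library names number both muscles alike, and no label says that a number is a rat. The main fits did not use the numbers as pairs. Best matches to the own number were 3 and 3 of 5 after ischemia (gastrocnemius and soleus) and 2 and 1 of 5 after sham operation.

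Signs reversed for the Eif3k interaction, at -0.032 without sham soleus 4 and -0.026 with DESeq2 on 19 libraries, and for Eif2b4 in soleus, at 5e-04 with library totals. Of the genes called between the muscles, Eif4a3 kept its call in 15 of 33 alternatives and Eif3d in 12 of 33.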
